A study of Rattus norvegicus with 46 samples.

Results

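Zinc transporters and metallothionein of the rat duodenum were followed over 6 combinations of genotype and iron supply. The 8 genes were chosen by symbol: the zinc exporters Slc30a1, Slc30a2 and Slc30a4, the zinc importers Slc39a1, Slc39a4 and Slc39a14, the metallothionein Mt1 and its regulator Mtf1. They had 13 probe sets that name no other gene, of 31042 probe sets and 14217 singly named genes on the arrays, and all 13 passed the filter on low values.

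The study compared segments of the villus in normal and iron-deficient rats and in Belgrade rats, which carry a mutation in Slc11a2 (Dmt1), the apical iron importer of the enterocyte. Wistar rats (labelled +/+) were 1 month old at the start: iron-repleted rats (3) and iron-deficient rats (4) received a low-iron diet for 4 weeks, during which 2 to 3 ml of blood was drawn every 3 days, and control rats (4) ate a normal diet. The repleted rats drank 50 µM ferric ammonium citrate for the last 3 days. Belgrade rats (labelled b/b, age not given) ate a normal diet (4 rats) or were fed iron for 3 days (4 rats) or 6 days (3 rats), and the notes describe the same procedures for them as for the Wistar rats, without saying whether they were bled. Each of the 22 rats gave a top and a bottom villus array, from frozen sections pooled by depth, and 1 further Wistar rat of a separate experiment gave an upper and a lower crypt array. Levels are log2 of the array intensity plus 44 after quantile normalisation, so each unit is a doubling, somewhat understated for dim probe sets. A level is compared only with the same probe set in other samples.

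Enterocytes take up dietary zinc through Slc39a4 in the brush border and release it to the blood through Slc30a1 in the basolateral membrane. Metallothioneins bind zinc in the cytosol, and the zinc finger protein Mtf1 senses free zinc and, in mice, turns on Mt1 and Slc30a1 through short metal response elements in their promoters. Slc39a14 also carries iron that is not bound to transferrin.

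Promoters of 6 of the 8 genes matched a RefSeq table of the GRCr8 assembly, which holds 250 bases before and 50 bases after each start. Mt1, the classic Mtf1 target, and Slc30a1, the member that differed most between the conditions, are shown because in mice both are known to be driven through metal response elements. Capitals mark the core of that element, TGCACNC or TGCGCNC, on either strand. The Mt1 promoter is at chr19:10832926-10833225 on the minus strand and the Slc30a1 promoter at chr13:106021769-106022068 on the plus strand.
Mt1: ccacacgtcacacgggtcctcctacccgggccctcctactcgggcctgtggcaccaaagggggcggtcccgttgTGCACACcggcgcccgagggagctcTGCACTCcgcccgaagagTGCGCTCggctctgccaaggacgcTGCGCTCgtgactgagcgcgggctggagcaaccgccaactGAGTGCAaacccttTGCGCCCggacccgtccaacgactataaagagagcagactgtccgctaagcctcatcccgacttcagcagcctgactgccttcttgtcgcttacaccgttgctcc
Slc30a1: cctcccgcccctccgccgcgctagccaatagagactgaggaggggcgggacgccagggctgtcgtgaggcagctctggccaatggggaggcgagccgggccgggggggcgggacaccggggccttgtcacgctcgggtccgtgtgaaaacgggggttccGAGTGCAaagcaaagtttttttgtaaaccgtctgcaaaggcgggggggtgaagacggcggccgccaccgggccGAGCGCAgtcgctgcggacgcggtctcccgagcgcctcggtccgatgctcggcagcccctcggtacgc

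The Mt1 window held 6 matches and the Slc30a1 window 2. The Slc30a2 and Slc30a4 windows held 3 each, the Mtf1 window 2 and the Slc39a1 window 1, and no match in these windows overlapped another. Of 33469 promoters of the same length, 24.2% held at least 1 match, 6.36% at least 2 and 1.68% at least 3. A match is a run of letters and was not tested as a binding site.

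Several arrays stood apart before any comparison. Control rats 1 and 2 differed by less than other pairs of rats, as did Belgrade rats 1 and 2 on the normal diet, so each pair was averaged and counted as 1 sample, which left 20 samples. Exocrine pancreas genes (14 of 16 listed were measured) averaged 12.11 to 15.86 in bottom arrays of 6 rats: deficient rat 1, Belgrade rat 3, Belgrade rat 4 fed iron for 3 days, Belgrade rat 2 fed iron for 6 days, and control rats 1 and 2. The top arrays of control rats 1 and 2 stood at 11.10 and 11.12 for this list, and the other bottom arrays lay between 7.80 and 8.64. Smooth muscle and stroma genes (16 of 16) averaged 15.41 in the bottom array of repleted rat 3 and 15.51 in that of control rat 3, the highest values of that list. Villus enterocyte genes (10 of 12) averaged 16.04 to 17.06 in top arrays and 12.50 to 15.80 in bottom arrays, with no overlap. The array labelled upper crypt, at 16.76, lay within the range of the villus top for these genes. In bulk tissue, fewer cells of a type and less RNA per cell cannot be told apart.

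Slc30a1 was the only member called between iron-deficient and control rats. In the villus top it stood at 11.99, 12.03, 11.59 and 11.63 in iron-deficient rats, against 9.10, 9.58, 8.95 and 10.14 in control rats. In the villus bottom it stood at 10.15, 10.35, 9.87 and 10.43 in iron-deficient rats, against 7.67, 7.05, 7.69 and 5.91 in control rats. The groups did not overlap in either segment. Here and below, the share of all probe sets without overlap between groups was not counted. Averaged over top and bottom, Slc30a1 was at 11.005 ± 0.20 in iron-deficient rats (SD, n = 4) and at 8.23 ± 0.18 in control rats (SD, n = 3). The difference was +2.77 (SE 0.54), a 6.84-fold higher level, with an adjusted p of 0.035 in limma over all 26517 probe sets tested. It was the single called probe set of the 13 members, against a background of 0.404% called among all probe sets, and 2 of the 13 had an unadjusted p under 0.05, against 14.1% of all probe sets. The median difference of the 13 was 0.04, against -0.02 over all probe sets.

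By segment the Slc30a1 difference was +2.33 (SE 0.63, adjusted p = 0.0765) at the top and +3.21 (SE 0.64, adjusted p = 0.11) at the bottom, both in limma. The difference between these effects was -0.88 (SE 0.69, adjusted p = 0.772 in limma). Marker lists of other cell types moved between the same groups. On the mean of both segments, stroma genes were lower in deficient than in control rats in 16 of 16 (median -0.69, 1 called by limma), lymphocyte and plasma cell genes in 9 of 10 (median -0.63, 1 called), and both red blood cell genes measured were higher (median +1.61, none called and both at an unadjusted p under 0.05). At the bottom the medians were +1.27 for enterocyte genes and -1.39 for stroma genes. There 1 of 10 and 9 of 16 had an unadjusted p under 0.05, none was called by limma, and 0% of all probe sets were called. The part of these lists in the Slc30a1 difference was not tested. The difference was +2.82 both without control rat 3, the control with the bottom array richest in stroma genes (adjusted p = 0.1), and without it and repleted rat 3 (adjusted p = 0.0439), the second setting being added after the data were seen. Without the 5 samples that held an array rich in pancreas genes, likewise added, the difference was +2.81 but not called (adjusted p = 0.236), with 1 of 26517 probe sets called at all.

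The size of the Slc30a1 difference varied little, while the call rested on few rats. Leaving out 1 sample at a time gave +2.67 to +2.87 with adjusted p-values between 0.0099 and 0.116. The call was lost on leaving out any control sample, deficient rat 1, 2 or 3, or rat 1 fed iron for 6 days. With the class of Xist, the RNA of the inactive X chromosome, as a covariate it was lost too. Xist was high in control rat 4 and repleted rat 3 and in no deficient rat.

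After 3 days of iron repletion, Slc30a1 was closer to the deficient than to the control level. The top arrays of repleted rats stood at 11.26, 12.10 and 10.79 and the bottom arrays at 10.999, 10.01 and 9.12. The mean was 10.71 ± 0.66 in repleted rats (SD, n = 3), which differed from deficient rats by -0.29 (SE 0.54, adjusted p = 0.864 in limma) and from control rats by +2.48 (SE 0.57, adjusted p = 0.0757 in limma). Repleted and control samples did not overlap, whereas repleted and deficient samples did. None of the 13 member probe sets was called in either comparison by limma, where 0% and 0.0679% of all probe sets were called, and 3 of 13 had an unadjusted p under 0.05 in each, against 12.8% and 15.1% of all probe sets. For Slc30a1 against control, the call was made without repleted rat 3 (+2.86, adjusted p = 0.0329), and also without Belgrade rat 4 or without rat 4 fed iron for 3 days, which leave the difference as it was (adjusted p = 0.0276 and 0.0381).

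**Figure D1:**
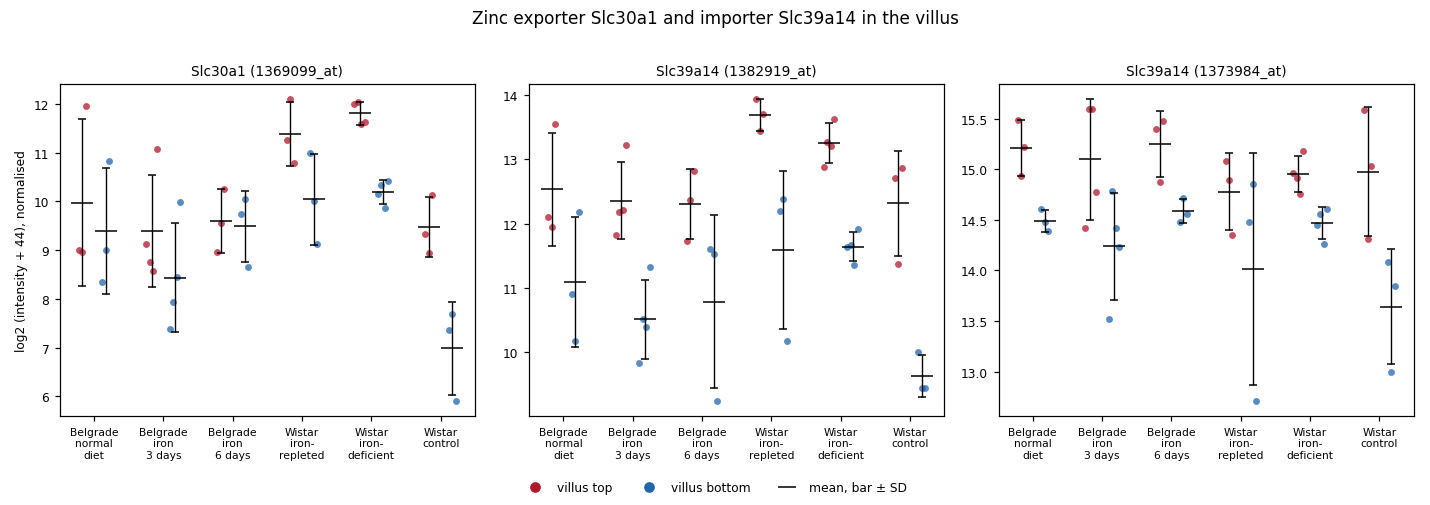
Levels of Slc30a1 and of both Slc39a14 probe sets (log2 of intensity plus 44, normalised) in each counted sample of the 6 groups. Red points are villus top, blue points villus bottom, and black bars the mean ± SD. The iron-repleted and iron-deficient samples of Slc30a1 lie above every control sample in both segments, and 1 Belgrade rat on the normal diet and 1 fed iron for 3 days stand far above the others of their group.

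In Belgrade rats Slc30a1 varied widely between animals on the normal diet and after 3 days of iron, mostly through rat 4, but less after 6 days. In the villus top it stood at 9.13, 8.88, 8.96 and 11.95 on the normal diet, at 9.14, 8.76, 8.57 and 11.07 after 3 days of iron, and at 8.96, 9.56 and 10.27 after 6 days. In the bottom it stood at 8.05, 8.66, 9.00 and 10.84 on the normal diet, at 7.38, 7.93, 8.45 and 9.997 after 3 days, and at 9.75, 10.05 and 8.66 after 6 days. Rat 4 was the highest of its group in both segments on the normal diet and after 3 days of iron. The group means were 9.68 ± 1.49 (SD, n = 3) on the normal diet, 8.91 ± 1.09 (SD, n = 4) after 3 days and 9.54 ± 0.24 (SD, n = 3) after 6 days. These groups overlapped one another.

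Averaged over the segments, the Belgrade and control samples did not overlap for Slc30a1, nor did they at the bottom, whereas they overlapped at the top. In the bottom arrays the medians of the same contrast were +0.996 for enterocyte genes and -1.09 for stroma genes. There 3 of 10 and 4 of 16 had an unadjusted p under 0.05, and none was called by limma. Their part in the Slc30a1 difference was not tested. The difference of +1.45 (SE 0.57) over both segments was not called by limma (adjusted p = 0.755). Against iron-deficient Wistar rats, the Belgrade level differed by -1.32 (SE 0.54, adjusted p = 1 in limma). Without Belgrade rat 4 these Slc30a1 differences were +0.60 and -2.18, with adjusted p-values of 1 and 0.215 in limma. Feeding Belgrade rats iron gave differences of -0.77 (SE 0.54) after 3 days and -0.14 (SE 0.57) after 6 days, both with an adjusted p of 1 in limma. In order of their means, iron-deficient rats came first, then repleted rats, Belgrade rats, those fed iron for 6 days, those fed for 3 days, and control rats. None of the neighbours in that order that were compared was called, and repleted against Belgrade rats and 3-day against control rats were not compared.

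No member probe set was called in the 5 comparisons that involve Belgrade rats by limma. Of all probe sets, 0.0113% were called in Belgrade minus control rats and 0% in the other 4 comparisons. At an unadjusted p under 0.05 there were 3 of 13 members in Belgrade minus control rats, 1 in Belgrade minus iron-deficient rats and 0 in each of the comparisons among Belgrade groups. Over all probe sets those shares were 6%, 4.6% and 2.75% to 4.84%. Taken by segment, no member probe set was called by limma in any comparison between groups, nor in the differences between top and bottom effects. At an unadjusted p under 0.05 there were 0 to 4 of 13 per comparison in top arrays, 0 to 4 in bottom arrays and 1 to 5 for the differences between effects. Over all probe sets these shares were 2.07% to 15.4%, 3.85% to 13% and 2.55% to 10.7%. The 4 at the top were in Belgrade minus iron-deficient rats (5.44% of all probe sets). The 4 at the bottom were in iron-deficient and in Belgrade minus control rats (13% and 6.51%). The 5 were in Belgrade minus control rats (6.45%), where the median was -0.67 over the 13 and +0.01 over all. The villus enterocyte list had a median of -1.47 there, and its part was not tested. In bottom arrays 0.00377% of all probe sets were called in Belgrade minus control rats, in Belgrade rats fed iron for 6 days minus unfed Belgrade rats and in 6 minus 3 days of iron, and 0% in the other comparisons. Between top and bottom effects the background was 0.00754% in repleted minus control rats, 0.00377% in repleted minus deficient rats and 0% in the others.

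Slc39a14, a zinc importer that also carries iron, gave different results with its 2 probe sets. Probe set 1382919_at stood at 12.87, 13.27, 13.22 and 13.64 in the top of iron-deficient rats, against 12.62, 12.81, 11.37 and 12.86 in control rats. In the bottom it stood at 11.63, 11.67, 11.35 and 11.92 in iron-deficient rats, against 10.18, 9.81, 9.44 and 9.44 in control rats. The bottom arrays of the groups were well separated and the top arrays barely. Over both segments the difference was +1.48 (SE 0.38) and was not called (adjusted p = 0.075 in limma). Repleted minus control rats differed by +1.67 (SE 0.40, adjusted p = 0.0787 in limma), with arrays at 13.93, 13.44 and 13.71 in the top and 12.20, 12.38 and 10.17 in the bottom of repleted rats.

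The brighter probe set of Slc39a14, 1373984_at, differed by +0.40 (SE 0.30, adjusted p = 0.581 in limma) between iron-deficient and control rats, and by +0.09 (SE 0.32, adjusted p = 0.931 in limma) between repleted and control rats. The deficient arrays spanned 14.26 to 15.18 and the control arrays 12.999 to 15.68. Over the 20 samples, the level of 1382919_at followed that of Slc30a1 with a Pearson r of 0.91, and 1373984_at with an r of 0.14. These values share normalisation and rats and are given as a description. Rat 4 of the Belgrade normal-diet group and rat 4 fed iron for 3 days were the highest of their groups for 1382919_at too, at 12.86 and 12.27 averaged over the segments.

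**Figure D2:**
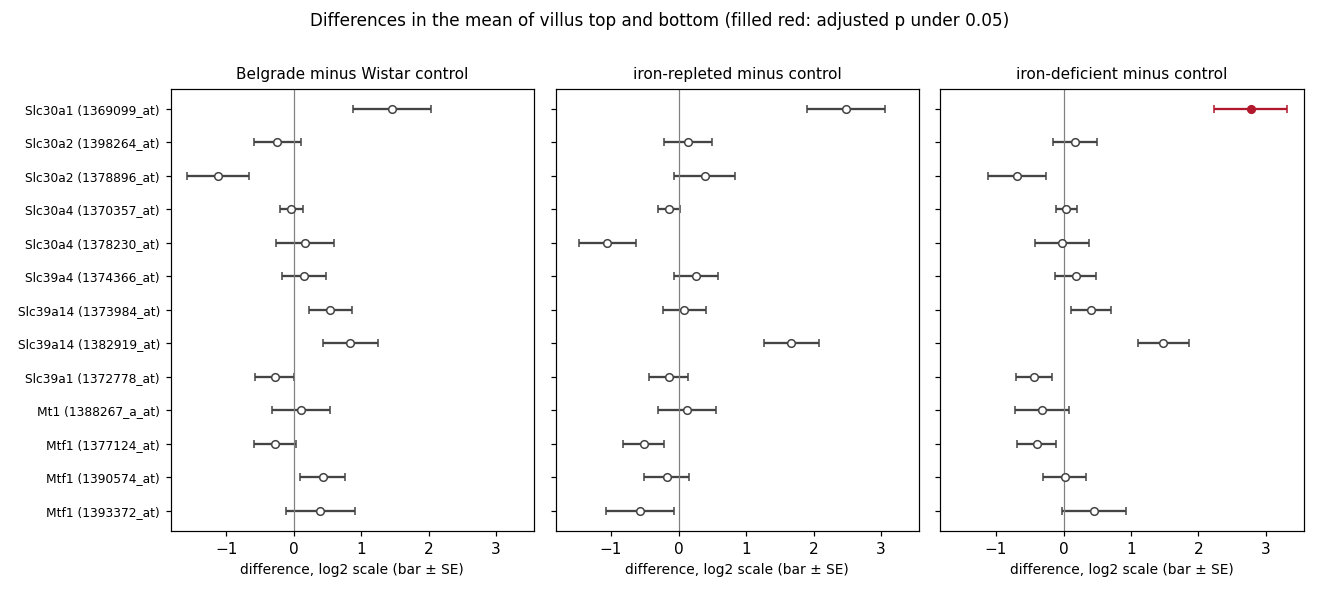
Differences in the mean of villus top and bottom for all 13 probe sets, on the log2 scale with the standard error, for Belgrade minus Wistar control, iron-repleted minus control and iron-deficient minus control rats. Slc30a1 in iron-deficient minus control rats is the single filled red point, called at an adjusted p under 0.05. Slc30a1 and Slc39a14 (1382919_at) lie farthest to the right in the iron-repleted and iron-deficient panels.

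Between the top and the bottom of the villus many members differed, as did many genes on the arrays. Of the 13 probe sets, 8 were called in limma between the top and bottom of the same rats, all 8 higher at the top, and they belong to 6 of the 8 genes. The background was high, with 54.2% of all probe sets called, 6757 of them higher and 7625 lower at the top, and a median difference of 0.02, against 0.80 over the 13. In the same comparison 9 of 10 enterocyte genes were called, all higher at the top with a list median of +1.99. Stroma genes were called lower at the top for 10 of 16, and pancreas genes for 5 of 14. The part of these lists in the members' differences was not tested.

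Slc39a4, the brush border importer mutated in the human zinc-deficiency disorder acrodermatitis enteropathica, was higher at the top in 20 of 20 samples, by 1.29 to 3.42. Its mean difference was +2.16 (SE 0.12, adjusted p = 1.71e-10 in limma). Top arrays stood at 14.10, 14.31, 13.91 and 15.18 in iron-deficient rats, against 15.50, 15.50, 14.28 and 14.85 in control rats. Bottom arrays stood at 12.37, 12.84, 12.39 and 12.56 in iron-deficient rats, against 12.56, 12.15, 11.08 and 11.61 in control rats. The groups overlapped at the top. At the bottom they overlapped only through control rat 1, and did not overlap once control rats 1 and 2 were averaged.

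The step of Slc39a4 along the villus differed by -1.36 (SE 0.41) between iron-deficient and control rats, and by -1.48 (SE 0.44) between Belgrade and control rats. Neither difference was called by limma (adjusted p = 0.334 and 0.686, unadjusted p = 0.00405 and 0.00364). The steps of individual samples did not overlap between these groups. Mean Slc39a4 over both segments differed by +0.18 (SE 0.30) between iron-deficient and control rats, and by +0.16 (SE 0.32) between Belgrade and control rats, with adjusted p-values of 0.844 and 0.98 in limma. The steps of the villus enterocyte genes moved by similar amounts in the same contrasts, with list medians of -1.41 and -1.47. None of these 10 genes was called by limma in either, and 6 and 5 had an unadjusted p under 0.05. Their part in the Slc39a4 step was not tested.

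Among the exporters, Slc30a1 was higher at the top in 17 of 20 samples, by a mean of +1.18 (SE 0.20, adjusted p = 9.63e-05 in limma). The 3 samples with the reverse order were Belgrade rats, 1 on the normal diet and 2 fed iron for 6 days. Slc30a4, a carrier that loads zinc into vesicles, was higher at the top in 20 of 20 samples by +0.97 (SE 0.08, adjusted p = 1.04e-08 in limma) with its bright probe set. Its dim probe set 1378230_at differed by +0.12 (SE 0.26, adjusted p = 0.724 in limma). Slc30a2, another vesicular carrier, was higher at the top in 19 of 20 samples with each probe set, by +1.64 (SE 0.16) and +2.22 (SE 0.22).

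Both probe sets of the importer Slc39a14 were higher at the top in 20 of 20 samples, by +0.80 (SE 0.10) for the brighter and +1.87 (SE 0.20) for the dimmer one. Slc39a1, an importer found in many tissues, was higher at the top in 16 of 20 samples, by only +0.28 (SE 0.09, adjusted p = 0.0155 in limma). Mt1 and the 3 probe sets of Mtf1 were not called. Their differences were -0.39 (SE 0.23) for Mt1 and -0.06, -0.14 and -0.03 for Mtf1, with adjusted p-values of 0.159 and 0.374 to 0.916 in limma.

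**Figure D3:**
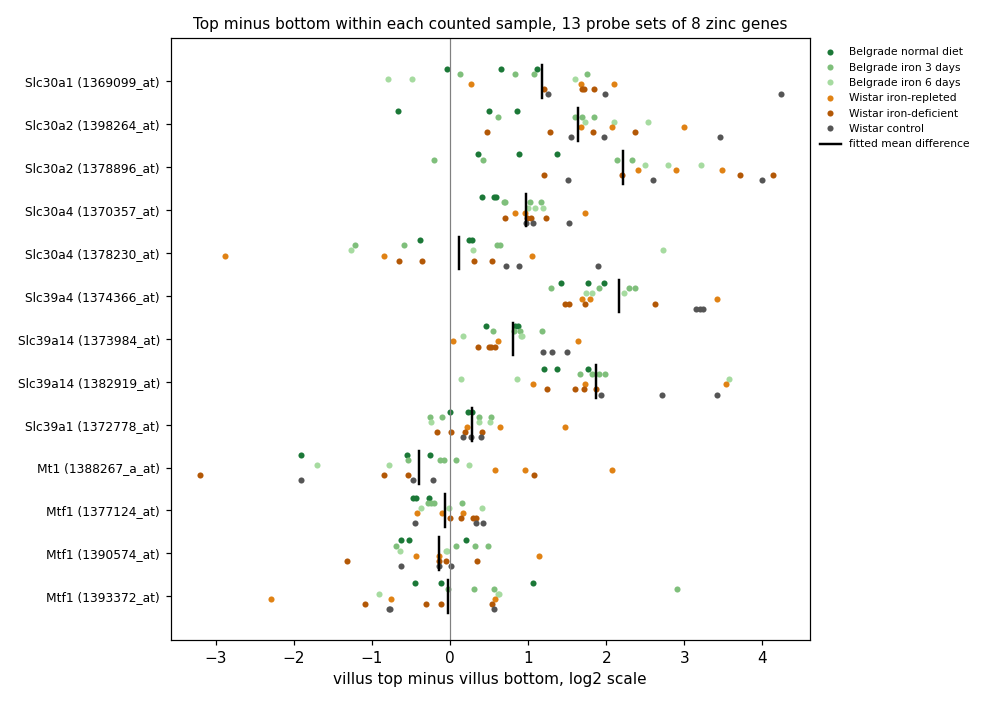
Villus top minus villus bottom on the log2 scale for each of the 20 counted samples (points, coloured by group) and the fitted mean (black bar), for all 13 probe sets. Points of Slc39a4, both Slc39a14 probe sets and the bright Slc30a4 probe set all lie right of 0, and those of Mt1 and Mtf1 lie on both sides of it.

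Slc30a2 at the villus top was not called between Belgrade and control rats. The samples did not overlap, though the nearest arrays with probe set 1398264_at stood at 10.60 and 10.64. Probe set 1398264_at stood at 10.29, 10.56, 10.60 and 9.58 in the top of Belgrade rats, against 11.01, 10.64, 12.52 and 11.12 in control rats. After iron feeding the top arrays of Belgrade rats stood at 11.68, 10.28, 11.19 and 9.98 on day 3 and at 11.46, 11.72 and 11.49 on day 6. All arrays of day 6 lay above all arrays of the unfed Belgrade rats. Belgrade minus control rats differed by -1.29 (SE 0.44, adjusted p = 0.426 in limma) at the top, where 0.0905% of all probe sets were called. Day 6 minus unfed Belgrade rats differed by +1.36 (SE 0.44, adjusted p = 1 in limma). The labels do not give the sex of the rats. Xist, the RNA of the inactive X chromosome, was high in 3 of 3 rats of day 6 and in 1 of 4 unfed Belgrade rats, and with its class as a covariate the Slc30a2 difference was +1.43 (adjusted p = 0.997 in limma).

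The second Slc30a2 probe set, 1378896_at, gave -2.04 (SE 0.64, adjusted p = 0.345) and +1.80 (SE 0.64, adjusted p = 1) in these comparisons with limma. Its top arrays stood at 10.28, 9.55, 10.04 and 8.89 in Belgrade rats, against 10.25, 10.39, 13.02 and 11.63 in control rats. The counted samples did not overlap, although single arrays did. Control rat 3 was the highest control array with both probe sets, and without it the differences at the top from control rats were -0.78 and -1.36. At the bottom the differences between Belgrade and control rats were +0.81 (SE 0.45) and -0.21 (SE 0.53).

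Slc30a4 at the top of the villus stood at 14.36, 14.32, 14.26 and 14.35 in Belgrade rats, against 14.82, 14.72, 14.65 and 14.63 in control rats. It stood at 14.73, 14.62, 14.71 and 14.38 after 3 days of iron and at 14.83, 14.72 and 14.71 after 6 days. The unfed Belgrade arrays were the lowest of all 4 groups. The differences were small, at -0.37 (SE 0.15, adjusted p = 0.632) from control rats and +0.44 (SE 0.15, adjusted p = 1) for day 6 minus unfed rats, both in limma and neither called.

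Mt1 showed no called difference in any comparison. Its single-gene probe set stood at 9.90, 9.34, 9.38 and 6.37 in the top of iron-deficient rats, against 10.15, 9.39, 7.94 and 9.51 in control rats. In the bottom it stood at 8.82, 9.88, 10.23 and 9.57 in iron-deficient rats, against 9.78, 10.20, 9.85 and 9.98 in control rats. The groups overlapped in both segments, with the lowest value in the top array of deficient rat 4. Iron-deficient minus control rats differed by -0.32 (SE 0.40, adjusted p = 0.787 in limma), repleted minus control rats by +0.12 (SE 0.43, adjusted p = 0.929) and Belgrade minus control rats by +0.11 (SE 0.43, adjusted p = 0.99).

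Iron-repleted rats carried Mt1 at 9.92, 9.47 and 11.29 in the top and at 8.96, 8.90 and 9.22 in the bottom. All 3 were higher at the top, whereas all control samples were lower there once control rats 1 and 2 were averaged. Control rat 1 alone was higher at the top. The difference between these steps was +2.07 (SE 0.83) and was not called (adjusted p = 0.436 in limma). Belgrade rats had 9.62, 9.95, 9.55 and 8.16 in the top and 10.77, 9.89, 9.80 and 10.07 in the bottom. Belgrade rats fed iron had arrays between 8.97 and 9.80 after 3 days and between 8.16 and 10.17 after 6 days, against 8.16 to 10.77 in unfed Belgrade rats.

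The Mt1 result has a limit of identity, since the rat genome carries Mt1 pseudogenes and close relatives whose transcripts may share these probes. A further probe set is annotated jointly to Mt1f, Ttr and Mt1 and was not counted as a member. It ranged from 13.61 to 16.87 in top arrays and from 14.09 to 16.69 in bottom arrays, and differed by -1.17 between top and bottom (SE 0.17, adjusted p = 1.56e-05 in limma). It differed by +0.03 (SE 0.37, adjusted p = 0.986) between iron-deficient and control rats. Belgrade rats fed iron for 3 days differed from unfed ones by -1.26 (SE 0.37), and 6 minus 3 days of iron by +1.01 (SE 0.37). The samples did not overlap in either comparison, and the share of all probe sets for which this held was not counted. Neither difference was called by limma, where 0% of all probe sets were called.

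Mtf1, the zinc sensor, was measured by 3 probe sets, none of them called in any comparison. The brightest, 1377124_at, stood at 11.05, 11.06, 11.85 and 11.38 in the top of iron-deficient rats, against 11.58, 11.60, 12.28 and 11.21 in control rats. In the bottom it stood at 11.06, 10.92, 11.52 and 11.09 in iron-deficient rats, against 11.95, 12.12, 11.95 and 10.79 in control rats. The groups overlapped, and the difference was -0.40 (SE 0.29, adjusted p = 0.572 in limma). The other probe sets gave +0.02 (SE 0.31) and +0.45 (SE 0.48), so the 3 probe sets did not share a direction.

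Slc39a1 stood at 12.48 to 13.30 over the arrays of iron-deficient rats, against 12.57 to 14.14 over those of control rats, a difference of -0.44 (SE 0.27, adjusted p = 0.497 in limma). Its repleted arrays spanned 12.76 to 14.67, and its Belgrade arrays 12.87 to 13.54 on the normal diet. All groups overlapped.

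**Figure D4:**
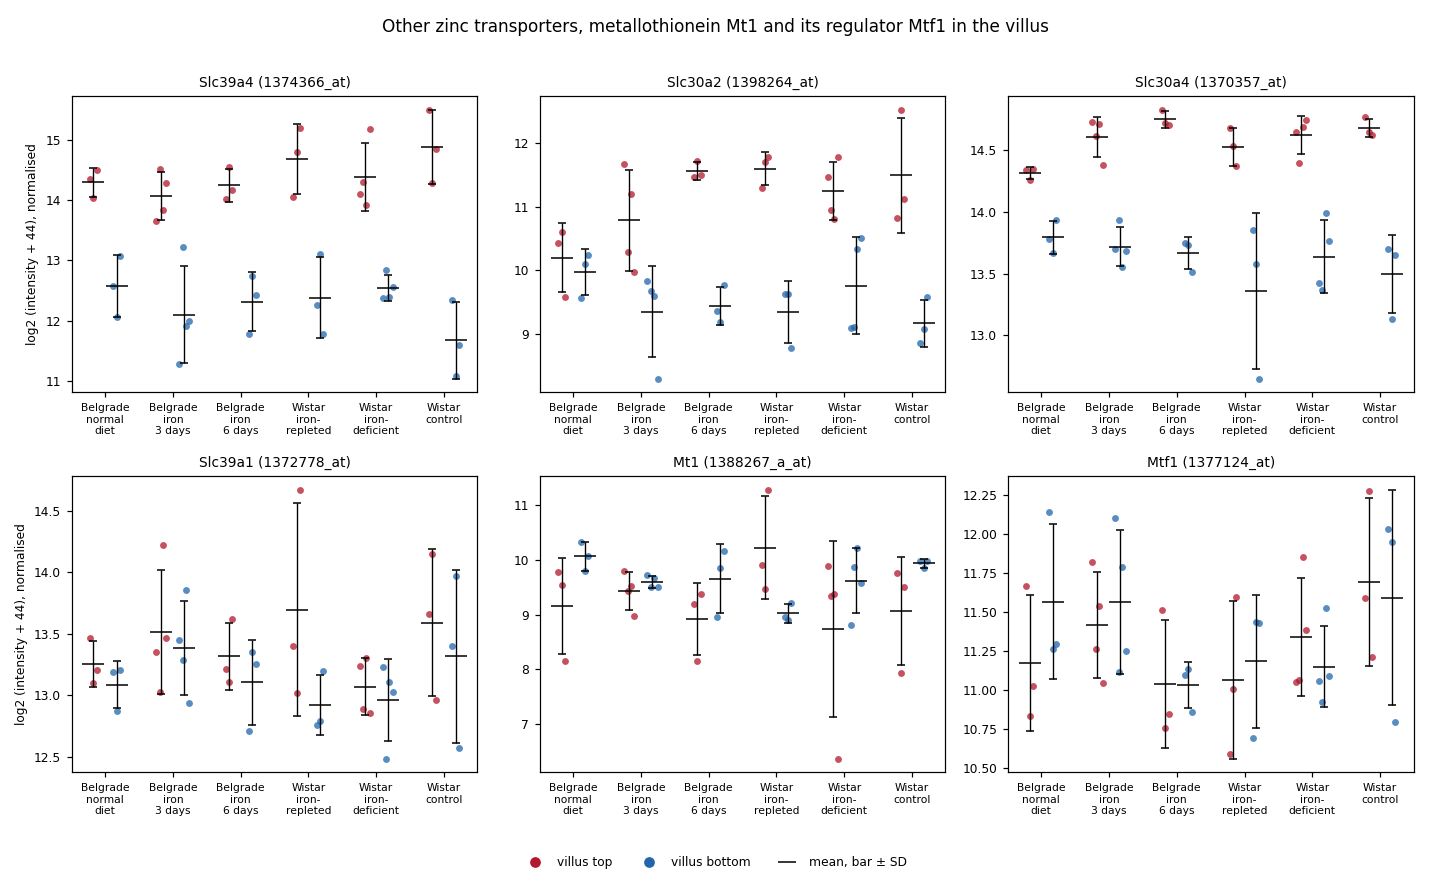
Levels (log2 of intensity plus 44, normalised) of Slc39a4, Slc30a2, Slc30a4, Slc39a1, Mt1 and Mtf1, each by its brightest probe set, in each counted sample of the 6 groups. Red points are villus top, blue points villus bottom, and black bars the mean ± SD. Top and bottom separate for Slc39a4 and Slc30a4 in every group, whereas Slc30a2 in Belgrade rats on the normal diet has top samples close to the bottom ones.

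In the 2 crypt arrays Slc30a1 stood at 11.44 in the array labelled upper crypt and 10.37 in that labelled lower crypt, above the 5.91 to 10.14 of the control villus arrays. Slc39a4 stood at 14.13 in the upper and 12.84 in the lower crypt array, Slc39a14 at 15.50 and 14.43 with the bright probe set, and Slc30a2 at 10.57 and 9.43. Mt1 stood at 9.72 in the upper and 10.37 in the lower crypt array. These arrays come from 1 rat of a separate experiment, so experiment, rat and position cannot be told apart.

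Among 23 other zinc genes listed, 19 had a probe set and 18 passed the filter. None was called by limma on the mean of top and bottom in the comparisons between groups, where 0% to 0.404% of all probe sets were called. In iron-deficient minus control rats 3 of 18 had an unadjusted p under 0.05, against 14.1% of all probe sets. Along the villus 8 of 18 were called, 2 higher and 6 lower at the top, against the background of 54.2% of all probe sets, with a median of -0.17 over the 18. The 2 higher were Slc30a10, known as a manganese exporter, at +2.04 (SE 0.23) and Slc30a3 at +0.56 (SE 0.15). The 6 lower were the metallothionein Mt2A at -1.20 (SE 0.13), Slc39a7 of the endoplasmic reticulum at -1.15 (SE 0.08), Slc30a5 and Slc30a6 of the secretory pathway at -1.02 and -0.30, Slc39a10 at -0.92 and Slc39a11 at -0.87.

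Slc39a8, a close relative of Slc39a14 and like it a carrier of zinc, iron and manganese, was called in the top arrays. It stood at 11.60, 11.57, 11.10 and 11.47 in iron-deficient rats and at 12.19, 10.84 and 11.39 in repleted rats, against 13.39, 13.40, 12.69 and 13.20 in control rats. All deficient and repleted arrays lay below all control arrays. So did all Belgrade top arrays, at 11.89 to 12.52 unfed, 10.71 to 12.06 after 3 days of iron and 11.88 to 12.17 after 6 days. In Belgrade minus control rats at the top, none of the 18 other zinc genes was called by limma, against 0.0905% of all probe sets. Slc39a8 fell by 1.66 on the log2 scale in iron-deficient rats relative to control rats (SE 0.31, adjusted p = 0.0142 in limma), where 0.977% of all probe sets were called at the top. In repleted minus control rats the difference was -1.63 (SE 0.34, adjusted p = 0.047 in limma), against a background of 0.207%. Leaving out 1 sample at a time kept the call in 19 of 20 cases for deficient rats, the exception being the control sample of rats 1 and 2 (adjusted p = 0.112). For repleted rats it kept the call in 8 of 20 cases, with adjusted p-values up to 0.174. Leaving out a sample of a group not compared keeps the difference as it was and changes only the shared spread. Over all 32 settings, these included, the calls were kept in 29 for deficient and 16 for repleted rats, with adjusted p-values up to 0.273 and 0.347 in limma. In the same top arrays of deficient minus control rats, enterocyte genes had a median of -0.44 with 2 of 10 called lower, and lymphocyte and plasma cell genes one of -0.79 with 1 of 10 called lower. Of goblet cell genes 1 of 7 and of red blood cell genes 1 of 2 were called higher, with medians of +0.29 and +2.55. In repleted minus control rats the 4 medians were -0.15, -0.53, -0.16 and +0.96, with no gene of these lists called by limma and 2, 4, 2 and 1 at an unadjusted p under 0.05. Exocrine pancreas genes had medians of -1.42 in deficient and -1.22 in repleted minus control rats at the top. None of the 14 was called by limma, and 6 and 3 had an unadjusted p under 0.05. Control rats 1 and 2, whose top arrays stood at 11.10 and 11.12 for pancreas genes, had the highest control levels of Slc39a8 there. The part of these lists in the Slc39a8 difference was not tested. At the bottom the differences were -0.08 (SE 0.21) and -0.62 (SE 0.23), and the difference between the top and bottom effects was not called (adjusted p = 0.261 and 0.435 in limma).

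Over the 20 samples, Slc30a1 was most like Actr2-ps1, Pi4k2b and Tmem30a among 12974 other genes, with Pearson r of 0.94, 0.93 and 0.90. Slc39a4 was most like Glmp, C13h1orf115 and F11r, with r of 0.87, 0.85 and 0.84. Mt1 was most like S100pbp, Apol3-ps1 and Tcaim, with r of 0.79, 0.76 and 0.75. Between Slc30a1 and Mt1 r was -0.36 and between Slc30a1 and Mtf1 -0.50. These samples share the 6 groups and 1 normalisation, so the values are descriptions.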

How the data were processed

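Per the labels' protocols, total RNA was taken from cryostat sections of the duodenum and labelled by the standard Affymetrix protocol. The deposited values are linear probe set intensities, 1 table of 46 arrays, already summarised and scaled by the authors, with 31099 probe sets of which 57 are controls. The summary method is not given in the sources used here. Array medians ran from 597 to 1179. Trimmed means were 2862 to 2867 in both arrays of control rat 3 and of Belgrade rat 3 fed iron for 3 days. In all other arrays they were 2485 to 2492, and the reason for this difference in scale is not known. Of 31042 probe sets, 20826 name 1 gene, 436 several and 9780 none in the platform annotation.

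Intensities plus 44 (the 10th percentile) were put on the log2 scale and quantile normalised over the 44 villus arrays, and the crypt arrays were mapped to the same quantiles. Probe sets above the 40th percentile in at least 3 villus arrays were kept (26517). Both villus arrays of each rat were averaged, or subtracted for the comparison of segments, and fitted with limma 3.58.1 in R 4.3.3 (lmFit, eBayes with a trend, all 6 groups). Benjamini-Hochberg adjustment covered all kept probe sets, and those with an adjusted p under 0.05 were called. Rats of a group whose arrays differed by a robust SD under 0.2 in both segments were counted as 1 sample. The pairs averaged were at 0.137 to 0.172, other pairs at 0.221 to 0.726. The fit was also run on simulated data with independent noise. Those data lacked the shifts shared by genes of a cell type, so that run cannot judge the calls made here.

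Replicate numbers were taken as not pairing the rats, because rats with the same number deviated together throughout in 0 of 15 pairs of groups (3 of 15 over bright probe sets). The labels describe separate rats. Every probe set of the 8 genes was named. The members, marker lists and other zinc genes were chosen with earlier results of these data known. The precision is limited by the number of arrays.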

Additional observations from a re-analysis of the deposited data

Results flagged for a closer look

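Of 26 groups of 4 samples, 2 held a sample far from the others, and chance flags about 1 in 20 such groups. Slc30a1 stood at 10.54 in Belgrade rat 4 fed iron for 3 days, against 8.26 to 8.51 in the other rats of that group. Mtf1 (1390574_at) stood at 8.76 in iron-deficient rat 4, against 10.05 to 10.15 in the other deficient rats.

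With rats 1 and 2 of the Belgrade and of the control group averaged, Mt1 was higher at the villus top in every iron-repleted sample, by a mean of 1.2 (0.58 to 2.07), whereas it was lower there in every Belgrade sample on the normal diet, with a mean difference of -0.9 (-1.9 to -0.25), and in every control sample, with a mean difference of -0.87 (-1.91 to -0.22). The difference between repleted and control steps was not called by limma (+2.07, adjusted p = 0.436), and that between repleted and Belgrade steps was not tested. Singly, Belgrade rat 2 (9.95 in the top, 9.89 in the bottom) and control rat 1 (10.15 and 9.78) were higher at the top.

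The crypt arrays, which entered no comparison, held Slc30a1 at 11.44 in the array labelled upper crypt and 10.37 in that labelled lower crypt, above the control villus arrays at 5.91 to 10.14. Mtf1 (1390574_at) stood there at 10.37 and 10.5, above 9.18 to 10.14 in control villus arrays.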

How the results depend on the processing

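The alternatives were run for 33 differences, those of members with an unadjusted p under 0.05 over both segments, along the villus or in 4 contrasts at the top, and the called ones of Slc39a8, each in 30 or 32 settings, and none of these changed direction. Other differences named, such as those of Mt1, Mtf1 and Slc39a1 between groups and the step of Slc39a4, were not recomputed. The count of called members in iron-deficient minus control rats, 1 as reported, was 0 with median centring, without the variance trend, with the Xist class as covariate and, added after the data were seen, without the samples rich in pancreas genes. It was 2 with every rat counted and with only the 2 conditions fitted, the second member being Slc39a14 (1382919_at). Leaving out 1 sample at a time gave 0 to 2. In iron-repleted minus control rats the count, 0 as reported, was 2 with every rat counted and 0 to 2 on leaving out samples. With a replicate block, which assumes a pairing that the rats did not show, the counts were 2 and 2, and Slc30a1 differed by +2.80 (adjusted p = 0.00986) and +2.78 (adjusted p = 0.00894) in limma. Over all settings the Slc30a1 difference between deficient and control rats ran from +2.21 (pseudocount 176) to +3.07 (pseudocount 11), with adjusted p-values of 0.00245 to 0.236. The background moved with it, at 0 called probe sets without the trend, 7 with median centring, 18 with the Xist class as covariate, 363 with the replicate block, 425 with only the 2 conditions fitted and 680 with every rat counted, against 107. In repleted minus control rats it was 0 with median centring and without the trend, 6 with only the 2 conditions fitted, 47 with the Xist class as covariate, 523 with the replicate block and 606 with every rat counted, against 18. The count of members called between top and bottom stayed between 7 and 11. The files give no detection calls, so whether dim probe sets such as those of Slc30a1, Mt1 and Slc30a4 (1378230_at) lay above background is unknown.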
